A study of Rattus norvegicus with 9 samples.

Results

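The hypothalamic neuropeptide genes described here are Avp, Oxt, Trh, Crh, Gal, Cartpt, Hcrt, Pmch, Agrp and Pomc. They are the loci of the gene count table to which the deposited annotation gives these names on the same strand, and where a name had several such loci the one of highest mean count was taken. All 10 names were found, among 114601 loci in all, and all 10 passed the filter on low counts that left 39057 loci for testing. RNA came from the whole brain of 9 alcohol-naive, untreated male rats: 3 wild-type Wistar rats of a commercial breeder, 3 rats heterozygous and 3 rats homozygous for the line Crl:WI-Lrapem1Geh. That line carries a deletion of 618 bp, made with CRISPR/Cas9, in the gene of Lrap, a long non-coding RNA. It is a single edited allele, and the labels give neither age nor whether the wild types were littermates, so genotype and line cannot be told apart. Ribosomal RNA was depleted and stranded libraries were sequenced as paired reads. The series asks how loss of Lrap alters brain gene expression.

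Neuropeptide genes encode precursor proteins that are cut by proteases in secretory granules and released as small peptides that act on G protein-coupled receptors. In the hypothalamus many of these precursors are made by small groups of neurons. Their RNA can then be scarce in a whole-brain sample and depend on how much of that tissue the sample holds. Several members, among them Gal, Cartpt and Crh, are also made in other brain regions. Vasopressin (Avp) and oxytocin (Oxt) are made in the paraventricular and supraoptic nuclei, thyrotropin-releasing and corticotropin-releasing hormones (Trh, Crh) control the anterior pituitary, orexin (Hcrt) and melanin-concentrating hormone (Pmch) come from the lateral hypothalamus, and the arcuate nucleus holds the appetite-promoting Agrp and the appetite-reducing Pomc and Cartpt.

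Promoters are shown for Avp, Oxt and Trh, 3 members with an entry in the RefSeq promoter table that were far lower in wild-type rat 2 than in the other wild types. Hcrt, with no read in that rat and few in the others, and Pmch, which has no entry, are not shown. Of the 10 members, 8 had an entry. Each sequence holds the 250 bases before the annotated start, written 5′ to 3′ in the direction of the gene (GRCr8, a newer build than the rn6 of the deposited files). Capitals mark matches to the letters searched, also where the other strand holds them (TGACCT is the reverse complement of AGGTCA). These were the TATA box TATAAA, its variant spelled CATAAA, the nuclear receptor hexamer AGGTCA and the cyclic AMP response element TGACGTCA. The variant of the TATA box was added after the sequences had been seen, and none of the matches shown overlap each other.
Avp, chr3:138248523-138248772, minus strand: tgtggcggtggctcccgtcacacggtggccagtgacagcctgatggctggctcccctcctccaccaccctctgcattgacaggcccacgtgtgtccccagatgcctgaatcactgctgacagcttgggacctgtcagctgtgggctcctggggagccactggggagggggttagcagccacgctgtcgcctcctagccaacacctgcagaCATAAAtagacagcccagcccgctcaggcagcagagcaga
Oxt, chr3:138235504-138235753, plus strand: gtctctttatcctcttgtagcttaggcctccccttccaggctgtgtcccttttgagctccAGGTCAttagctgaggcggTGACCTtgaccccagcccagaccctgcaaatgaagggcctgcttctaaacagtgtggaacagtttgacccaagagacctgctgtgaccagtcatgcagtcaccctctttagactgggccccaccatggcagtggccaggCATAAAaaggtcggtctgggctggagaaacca
Trh, chr4:126301763-126302012, minus strand: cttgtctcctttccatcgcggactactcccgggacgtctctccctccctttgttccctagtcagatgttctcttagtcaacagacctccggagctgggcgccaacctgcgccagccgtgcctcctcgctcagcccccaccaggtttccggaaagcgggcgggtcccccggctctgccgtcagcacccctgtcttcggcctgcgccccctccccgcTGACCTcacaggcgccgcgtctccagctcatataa
CATAAA, a variant of the TATA box, begins 40 bases before the Avp start, 32 bases before the Oxt start and 140 bases before the Agrp start. It is found in 11.4% of the 33469 promoters of the table. AGGTCA, the core hexamer of many nuclear receptor sites, lies in both orientations in the Oxt promoter, 190 and 171 bases before the start, as its reverse complement in the Trh promoter, 35 bases before the start, and as spelled in the Pomc promoter, 69 bases before it. It is in 14.1% of promoters. Gal, Hcrt and Pomc have TATAAA at 41, 29 and 32 bases, a motif of 12.9% of promoters, and Cartpt has the cyclic AMP response element TGACGTCA at 142 bases, a motif of 1.59% of promoters. These matches are descriptions of the letters only.

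Library depth ran from 27489383 to 46975919 RSEM expected counts. Wild-type rat 2 stood apart: mitochondrial transcripts took 40.4% of its counts, against 14.8 to 28.1% in the other 8 libraries. The proportions among the 55 of 99 loci of added spike-in RNA with at least 20 counts in every library followed 1 pattern in wild-type rats 1 and 3 and all heterozygous rats, and a different one in wild-type rat 2 and the 3 homozygotes. The effect of deletion on both alleles and this spike-in pattern can therefore be separated only through wild-type rat 2. The authors' assembly holds a pair of Lrap isoforms, and an exon of one of them spans a stretch, exactly as long as the deletion, that lies in an intron of the other. The labels do not state where in the locus the deletion lies. The isoform with that stretch was at 2.58, 1.89 and 2.37 CPM in the wild types (CPM being the count scaled to a common library size), 1.01, 1.00 and 1.11 CPM in the heterozygotes and 0.245, 0.389 and 0.401 CPM in the homozygotes, in the order of the labels. The other isoform ranged from 104 to 161 expected counts over the 9 libraries, not scaled to library size and so not comparable with the CPM above. Its lowest count was in homozygous rat 1, the library of least depth.

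The hormones of the posterior pituitary were present at about 1 to 2 CPM in 8 brains and nearly absent in 1. Avp encodes vasopressin, which retains water in the kidney and raises blood pressure. Avp stood at 1.15, 0.026 and 2.03 CPM in wild types 1 to 3, 1.32, 1.90 and 1.08 CPM in heterozygotes 1 to 3 and 1.95, 1.26 and 1.21 CPM in homozygotes 1 to 3. Oxt encodes oxytocin, the peptide of milk ejection and of social behaviour. Oxt measured 1.10, 0.026 and 1.63 CPM in the wild types (rats 1 to 3), 1.01, 1.15 and 1.52 CPM in the heterozygotes and 1.55, 1.26 and 1.69 CPM in the homozygotes. For both genes the lowest and, for Avp, also the highest library was a wild type, and the ranges of the 3 genotypes overlapped. Each value in wild-type rat 2 is a single count, with an exact 95% Poisson interval of 0.000659 to 0.145 CPM. Summed over wild-type rats 1 and 3, Avp was at 61.3 times (interval 10.8 to 2439) and Oxt at 52.5 times (interval 9.23 to 2093) its level in wild-type rat 2. These intervals cover counting error only. Wild-type rat 2 was picked out by its near absence of Avp and Oxt, so these ratios restate that choice.

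Avp and Oxt are neighbours that face each other, and part of their reads could not be told apart. The Avp locus (MSTRG.69099) occupies 123117974 to 123119528 of chromosome 3, minus strand, and the Oxt locus (MSTRG.69092) on the plus strand at 123106694 to 123107534 (rn6), with 10439 bp between them. Their precursors share a nearly identical stretch of neurophysin, the carrier protein that is cut from each hormone. In 3 libraries the expected counts were fractional, and in each of these the sum over Avp and Oxt was a whole number within 0.005. Heterozygous rat 2 had 93.7 and 57.3 counts, heterozygous rat 3 had 40.51 and 58.49, and homozygous rat 3 had 47.51 and 67.49. The ratio of Avp to Oxt ran from 0.707 in heterozygous rat 3 to 1.65 in heterozygous rat 2, and levels of either gene are uncertain by the reads divided in this way. The assembly also places a second Avp piece of the same strand at 123117482 to 123117713, with 11 to 28 counts in 8 libraries and 0 in wild-type rat 2.

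The releasing hormones differed from each other: Trh was low in wild-type rat 2 and Crh was not. Trh encodes the precursor of thyrotropin-releasing hormone, which drives the thyroid axis. Trh stood at 3.33, 0.495 and 5.21 CPM in wild types 1 to 3, 3.60, 4.44 and 3.39 CPM in heterozygotes 1 to 3 and 2.92, 6.43 and 6.12 CPM in homozygotes 1 to 3. Wild-type rat 2, with 19 counts, held less than any other library, and 8.65 times as much was found in wild-type rats 1 and 3 (interval 5.45 to 14.5). Crh encodes corticotropin-releasing hormone, the head of the stress axis, which is also made in cortex and amygdala. Crh measured 0.946, 0.781 and 0.551 CPM in the wild types (rats 1 to 3), 0.461, 1.09 and 0.893 CPM in the heterozygotes and 0.752, 1.19 and 1.21 CPM in the homozygotes. Its lowest library was heterozygous rat 1, wild-type rat 2 was in the middle of its genotype, and the ratio of wild-type rats 1 and 3 to rat 2 was 0.956 (interval 0.606 to 1.54).

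The lateral hypothalamic genes had the widest range of all members in CPM (Pmch) and the fewest counts (Hcrt). As a fold over the lowest library, Avp (0.026 to 2.03 CPM) and Oxt (0.026 to 1.69 CPM) ranged more widely than Pmch. Pmch encodes melanin-concentrating hormone, a peptide of feeding and sleep. Pmch stood at 8.24, 0.703 and 11.9 CPM in wild types 1 to 3, 9.64, 11.4 and 3.31 CPM in heterozygotes 1 to 3 and 6.37, 12.7 and 10.8 CPM in homozygotes 1 to 3. Besides wild-type rat 2, heterozygous rat 3 was low, and the ratio of wild-type rats 1 and 3 to rat 2 was 14.3 (interval 9.77 to 21.9). Hcrt encodes the precursor of both orexins, peptides of wakefulness. Hcrt measured 0.358, 0 and 0.175 CPM in the wild types (rats 1 to 3), 0.373, 0.283 and 0.131 CPM in the heterozygotes and 0.265, 0.281 and 0.327 CPM in the homozygotes. No read of Hcrt was counted in wild-type rat 2, where the upper limit of the exact Poisson interval was 0.096 CPM. With that rat set to a floor of 3 counts (0.0781 CPM), the ratio of wild-type rats 1 and 3 to it was 3.40. That ratio leaves out the counting error of rats 1 and 3 and is not a lower limit. Hcrt had 5 to 17 counts in the other libraries, and the SD of its homozygous values was 0.342 times what counting error alone gives. Antisense loci of 0 to 3 counts per library overlap Hcrt and, likewise, Pomc. The sources used here do not say whether reads were counted by strand.

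The arcuate genes did not move together across libraries. Pomc encodes the precursor of the appetite-reducing melanocortins, of ACTH and of beta-endorphin. Pomc stood at 0.384, 0.573 and 0.476 CPM in wild types 1 to 3, 1.08, 0.525 and 0.552 CPM in heterozygotes 1 to 3 and 1.11, 0.468 and 0.680 CPM in homozygotes 1 to 3. Wild-type rat 2 was above the other wild types, and rat 1 was the high value in both mutant genotypes. Cartpt encodes the CART peptides, which reduce food intake and are also made in many regions outside the hypothalamus. Cartpt measured 3.91, 1.87 and 3.84 CPM in the wild types (rats 1 to 3), 2.92, 9.86 and 5.91 CPM in the heterozygotes and 3.32, 5.64 and 8.36 CPM in the homozygotes. All wild-type values lay below 4 of the 6 mutant values, and rat 1 was the low value in both mutant genotypes. Its lowest library was again wild-type rat 2, with a ratio of 2.07 (interval 1.59 to 2.71).

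**Figure D1:**
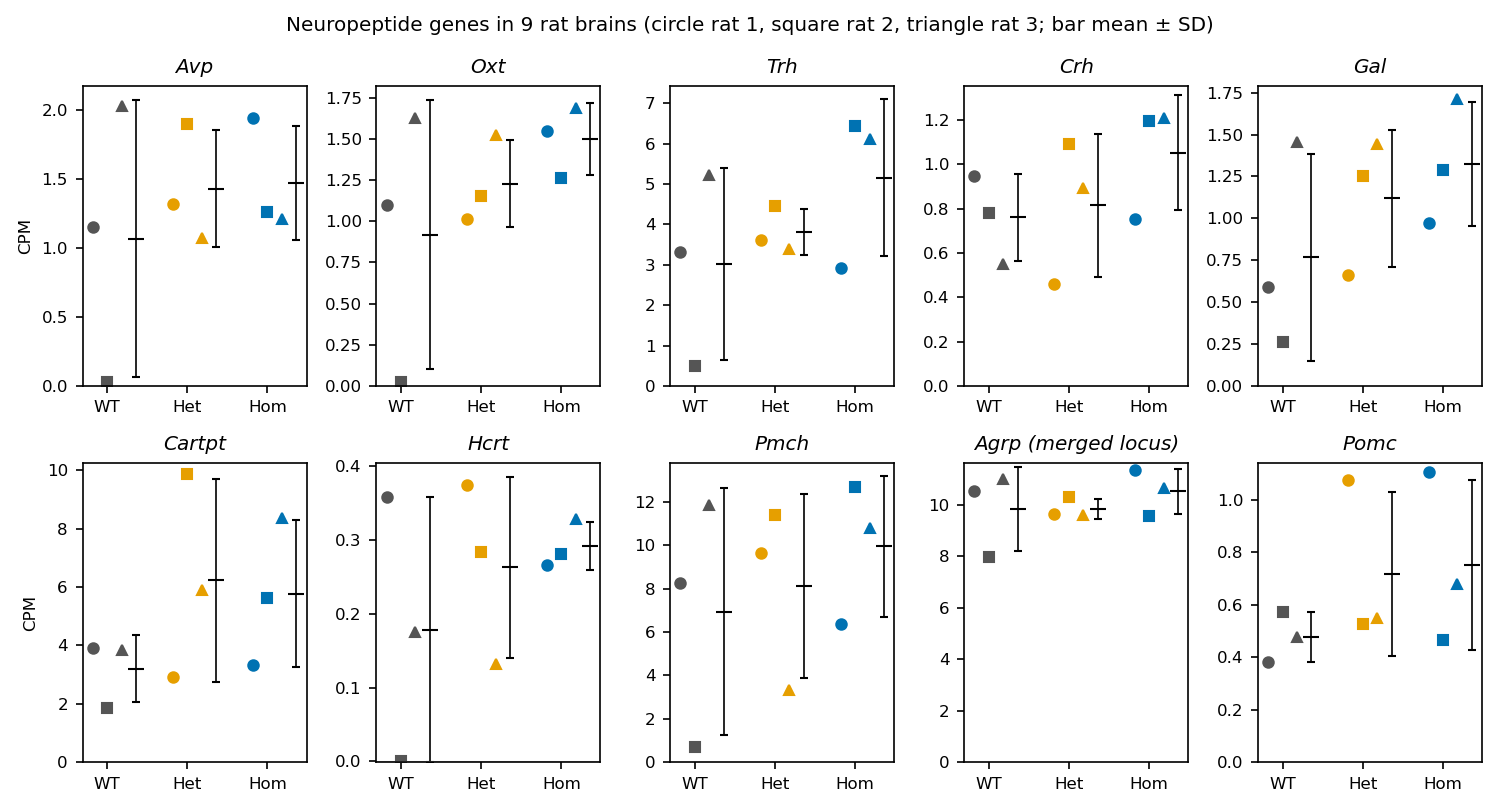
CPM of the 10 members in each of the 9 libraries, grouped as wild type (WT), heterozygous (Het) and homozygous (Hom), with symbols for the rat number and a bar for the mean ± SD of 3 rats (the lower bar of Hcrt in wild type ends at the axis, where the SD exceeds the mean). Wild-type rat 2 (grey square) is the lowest of 9 in 8 panels, down to 0.026 CPM for Avp and Oxt, and is in the middle of the range for Crh and Pomc.

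Cartpt was assembled as a pair of isoforms that differ by 39 contiguous bases at 30126664 to 30126702 on chromosome 2 (rn6), which is 13 codons if the stretch is in frame. Rats are known to make a longer and a shorter CART precursor by alternative splicing. The shorter form took 85.2, 72.8 and 75.8% of the gene in wild-type rats 1 to 3, 78.0, 79.6 and 76.7% in heterozygous rats and 64.8, 74.9 and 82.3% in homozygous rats, by the authors' isoform percentages. The groups overlapped, with an exact two-sided permutation p of 0.5 for homozygous against wild type. The longer form stood at 0.607, 0.532 and 0.973 CPM in wild types 1 to 3, 0.674, 2.11 and 1.44 CPM in heterozygotes 1 to 3 and 1.21, 1.48 and 1.56 CPM in homozygotes 1 to 3. Homozygous rats thus all lay above wild-type rats, at 1.41 ± 0.181 against 0.704 ± 0.236 CPM (SD, n = 3 each), and without wild-type rat 2 the wild-type mean was 0.790 CPM. The exact permutation p of 0.1 is the smallest that 3 against 3 allows, and ranges were apart in this direction for 7.07% and in the other for 5.9% of the 63446 isoforms with at least 10 counts in 3 libraries. Isoform levels rest on the division of shared reads by RSEM.

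**Figure D2:**
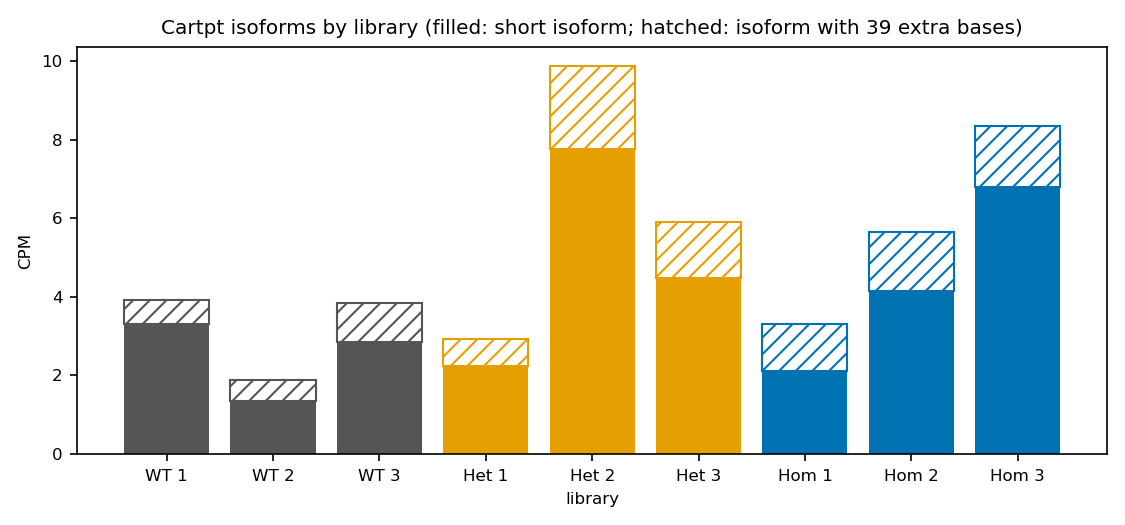
CPM of the Cartpt isoforms in the 9 libraries, stacked, with the shorter form filled and the form with 39 more bases hatched. The longer form is between 0.532 and 0.973 CPM in wild types and between 1.21 and 1.56 CPM in homozygotes, and the shorter form takes 64.8 to 85.2% of the gene.

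Most counts of the locus named Agrp were assigned to other transcripts. Agrp encodes the agouti-related protein, which promotes feeding by opposing melanocortins at their receptors. The locus (MSTRG.49801, minus strand of chromosome 19, 37526412 to 37601131 in rn6) spans 74720 bp and joins 5 isoforms, of which 1 is named for Agrp and 4 lie antisense to Fam65a. The Agrp isoform has 4 exons of its own with 572 bases, 27.6% of its 2071, and then, across a gap of 58227 bp, 2 exons that the other isoforms share in whole or in part. The whole locus measured 10.5, 7.97 and 11.0 CPM in the wild types (rats 1 to 3), 9.62, 10.3 and 9.59 CPM in the heterozygotes and 11.3, 9.57 and 10.6 CPM in the homozygotes, the steadiest member of all 10. The Agrp isoform held 1.68 to 11.6% of its counts. That isoform stood at 0.430, 0.222 and 0.527 CPM in wild types 1 to 3, 0.644, 0.172 and 0.335 CPM in heterozygotes 1 to 3 and 1.32, 0.488 and 0.956 CPM in homozygotes 1 to 3. Homozygous rats 1 and 3 were the highest and the ranges overlapped, with a log2 fold change of 1.16 (SE 0.50) over wild type when the isoform took the place of the locus (edgeR unadjusted p = 0.040, adjusted p = 0.544) and of 1.21 (SE 0.50) over heterozygous rats (unadjusted p = 0.032, adjusted p = 1.00). Its slope per deleted allele was 0.60 (SE 0.26; edgeR unadjusted p = 0.035, adjusted p = 0.454). By exact two-sided permutation of the CPM of the Agrp isoform, p was 0.2 for homozygous against wild-type and against heterozygous rats. Of its 2071 bases, 1499 also lie in the other isoforms, so its counts rest on the division of shared reads by RSEM. The isoform was put in place of the locus after the data had been seen. Values given below for Agrp are those of the merged locus.

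**Figure D3:**
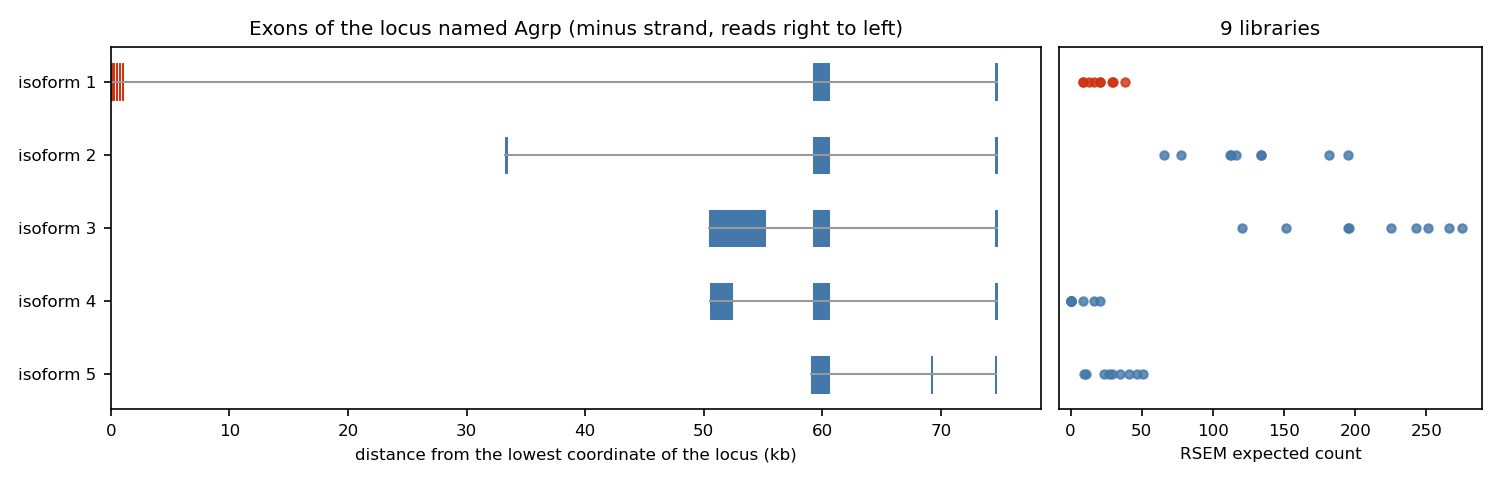
Left, exons of the 5 isoforms of the locus named Agrp by distance in kb from its lowest coordinate, with the 4 exons that belong to Agrp alone in red. Right, the RSEM expected count of each isoform in the 9 libraries, where isoforms 2 and 3, antisense to Fam65a, hold most of the locus and the Agrp isoform holds 1.68 to 11.6%.

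Galanin (Gal) is made in several hypothalamic nuclei and in the brainstem. Gal measured 0.588, 0.260 and 1.45 CPM in the wild types (rats 1 to 3), 0.659, 1.25 and 1.44 CPM in the heterozygotes and 0.973, 1.29 and 1.71 CPM in the homozygotes. Rat 1 was the lowest of each mutant genotype, wild-type rat 2 was the lowest of all with 10 counts, and the ratio of the other wild types to it was 3.94 (interval 2.04 to 8.52).

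Per length of transcript, the members ranked in the order Cartpt (mean over 9 libraries 3.99 TPM), Avp (3.02), Pmch (2.11), the Agrp locus (1.99), Trh (1.63), Oxt (1.61), Gal (0.782), Crh (0.429), Pomc (0.33) and Hcrt (0.309 TPM). TPM, from the authors' tables, divides counts by transcript length and scales every library to the same total. The ranges over libraries overlapped for each pair of neighbours in that order. The place of Agrp is that of its merged locus. The Agrp isoform alone ran from 0.06 to 0.26 TPM, below the mean of every member ranked. The Avp locus was assembled with 386 exon bases as a fragment within the annotated transcript, which sets its effective length.

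Wild-type rat 2 was the lowest of the 9 libraries in 8 of 10 members, all but Crh and Pomc, with Agrp taken as its merged locus. The Agrp isoform was lowest in heterozygous rat 2, which makes the count 7 of 10. Wild-type rat 2 was also the lowest at 24.4% of all tested loci and at 50% of the loci with a gene symbol, so the count of members is to be read against these shares. That library had been picked out beforehand by its near absence of Avp and Oxt. Both are therefore lowest there by that choice and lend the count no weight. The SD of log2(CPM + 0.5) over 9 libraries was 1.13 for Pmch, 0.84 for Trh, 0.68 for Avp, 0.68 for Cartpt and 0.63 for Oxt, with a median of 0.227 over symbol loci. Over the 8 libraries without wild-type rat 2 these values were 0.60, 0.39, 0.28, 0.58 and 0.21, and the median was 0.192. The spread of Avp and Oxt lay mainly in that library, which follows from how it was picked. Cartpt varied nearly as much without that library. In bulk tissue, fewer cells of a type and less RNA per cell cannot be told apart. The part of the mitochondrial share of that library in these levels was not tested.

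Genes of many other lists were low in the same library, and the counts below are to be read against the 50% of symbol loci that were lowest there. Of 10 tested hypothalamic transcription factors wild-type rat 2 was the lowest in 10. Sim1, Six6 and Nr5a1 of the same list did not pass the filter on low counts. Whether the RNA of these factors came from the hypothalamus alone was not tested. Arnt2 was at 97.2 to 139 CPM. Lhx1 was lowest in wild-type rats 2 (0.026 CPM) and 1 (0.384 CPM) and homozygous rat 2 (0.398 CPM), as the cerebellar list below was. Wild-type rat 2 was the lowest in 5 of 6 genes of dopamine, histamine and serotonin neurons. Most of these are also, or mainly, made in the midbrain and raphe. As mean log2(CPM + 0.5), the factors were at 0.34 in that library against 0.91 to 1.30 elsewhere, and the amine genes at 0.249 against 1.43 to 2.67. The low levels were not limited to the hypothalamus: wild-type rat 2 was lowest in 7 of 7 striatal, 7 of 7 thalamic and 6 of 7 general brain genes, the last at a mean of 8.27 against 8.61 to 9.12. It was also lowest in 9 of 13 processing and granule genes and 7 of 10 peptide receptors, but in 6 of 13 other neuropeptides, 3 of 8 modulators of arcuate signalling and 3 of 6 pituitary genes. It was lowest in 0 of 6 cortical and hippocampal, 0 of 7 choroid plexus and 0 of 4 blood genes. Crh and Pomc did not share the low level of the other members in this library. The cerebellar list was lowest in homozygous rat 2 (1.46), followed by wild-type rats 2 (1.85) and 1 (1.89), with up to 5.21 elsewhere. The part of these lists in the members' levels was not tested.

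**Figure D4:**
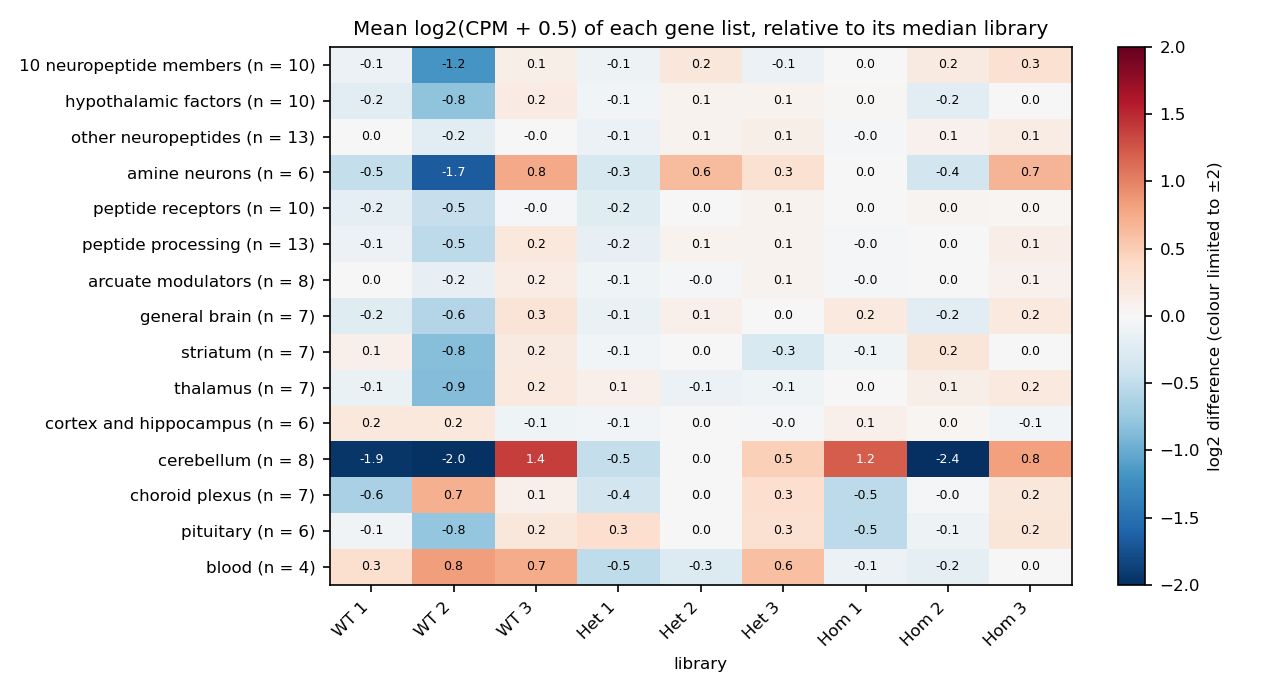
Mean log2(CPM + 0.5) of each gene list in the 9 libraries, relative to the list's median library (red higher, blue lower; n is the number of tested genes). Wild-type rat 2 is the lowest library in every list shown other than cortex and hippocampus, cerebellum, where it is next to lowest, choroid plexus and blood.

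The genes nearest to a member in profile, by the root-mean-square difference of centred log2(CPM + 0.5) over 9 libraries, were sought among 13387 symbol loci of at least 1 CPM for the members of widest spread. For Pmch they were Slc6a3, the dopamine transporter (0.38), Trh (0.44) and Th, tyrosine hydroxylase of dopamine synthesis (0.53). For Trh they were Th (0.28), LOC100910418 (0.32) and Calcr, the calcitonin receptor (0.33). For Avp they were Mlnr (0.17), Dpysl5 (0.18) and Ecel1 (0.18), and the distance from Avp to Oxt was 0.28. Without wild-type rat 2 the nearest to Pmch were Scn7a, Arpp19 and AC099294.7, those to Trh were Cldn1, LOC100912228 and Scn7a, and those to Avp were Dpysl5, P4ha3 and Lhfp. Dpysl5 was thus the single gene named for Avp both with and without that library, and none was for Pmch or Trh. With a pseudocount of 0.1 in place of 0.5, the nearest were Trh, Slc6a3 and Avp to Pmch, Asb4, Th and Calcr to Trh, and LOC100360841, Oxt and Slc32a1 to Avp. The SD over 9 libraries with that pseudocount was 1.29 for Pmch, 1.25 for Avp and 1.04 for Trh.

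Between genotypes, no member passed the test. By mean CPM the order was wild type, then heterozygous, then homozygous for 9 of 10 members, and Cartpt was highest in heterozygous rats. The same ascending order was found at 24.5% of all tested loci and at 46% of symbol loci. Without wild-type rat 2 it held for 3 of 10 members (Crh, Gal and Pomc), beside 20.3% of all and 30.3% of symbol loci, and the wild-type mean was then the highest of the genotypes for Avp (1.59 CPM), Pmch (10.1 CPM) and the Agrp locus (10.8 CPM). With all 9 libraries the means from wild type to homozygous were 1.07 ± 1.00, 1.43 ± 0.423 and 1.47 ± 0.411 CPM for Avp and 0.918 ± 0.817, 1.23 ± 0.265 and 1.50 ± 0.216 CPM for Oxt. For Trh they were 3.01 ± 2.38, 3.81 ± 0.559 and 5.16 ± 1.94 CPM, and for Pmch 6.93 ± 5.69, 8.12 ± 4.25 and 9.94 ± 3.24 CPM. The means of Cartpt were 3.21 ± 1.16, 6.23 ± 3.48 and 5.77 ± 2.52 CPM (SD, n = 3 each, in all of these). The SD of the wild types exceeded the difference between the genotypes for Avp, Oxt, Trh and Pmch.

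In homozygous against wild-type rats the log2 fold change was above 0 for 10 of 10 members by edgeR, though by the authors' TPM it was below 0 for 9 of 10, all but Cartpt, on a scale where the median symbol locus was at -0.64. Relative to that median the TPM ratio was above 0 for all but the Agrp locus (-0.01). The largest were Cartpt (0.86, SE 0.45), Gal (0.80, SE 0.51) and Trh (0.79, SE 0.58). Hcrt (0.71, SE 0.71), Oxt (0.70, SE 0.67), Pomc (0.59, SE 0.43), Pmch (0.52, SE 0.80), Crh (0.49, SE 0.37), Avp (0.43, SE 0.72) and the Agrp locus (0.10, SE 0.18) followed. The edgeR adjusted p ran from 0.545 to 0.855 over the members. The count called by edgeR was 0 of 10, beside 0% of 39057 loci, and 0 had an unadjusted p under 0.05, beside 4.88% of loci higher and 4.25% lower (the Agrp isoform, given above, was under it). DESeq2 and limma-voom called 0 members as well, though Cartpt had a DESeq2 unadjusted p of 0.047 (DESeq2 adjusted p = 0.663). In 0 of 10 members the ranges of CPM were apart, beside 7.29% of loci higher and 6.09% lower. The median over the members was 0.64, that of all tested loci -0.07 and that of symbol loci 0.14. Without wild-type rat 2 these medians were 0.21, -0.03 and 0.05, and without wild-type rat 3 they were 1.11, -0.10 and 0.30.

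These directions rested in part on wild-type rat 2. Without it the log2 fold change was -0.14 (SE 0.36) for Avp, -0.01 (SE 0.47) for Pmch and -0.03 (SE 0.16) for the Agrp locus, and it was 0.13 (SE 0.31) for Oxt, 0.14 (SE 0.53) for Hcrt, 0.29 (SE 0.32) for Trh and 0.39 (SE 0.44) for Gal. For Cartpt it was 0.59 (SE 0.49), for Crh 0.52 (SE 0.42) and for Pomc 0.73 (SE 0.48), so that 7 of 10 members were above 0 without that library. Without wild-type rat 3 instead, the values of Avp and Oxt were 1.31 and 1.42. A fit with the spike-in pattern as covariate, added once the data had been seen, sets the homozygous rats against wild-type rat 2 alone. Its values for Avp (5.63), Oxt (5.68), Trh (3.39) and Pmch (3.82) restate how low that library was and are no test of genotype.

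**Figure D5:**
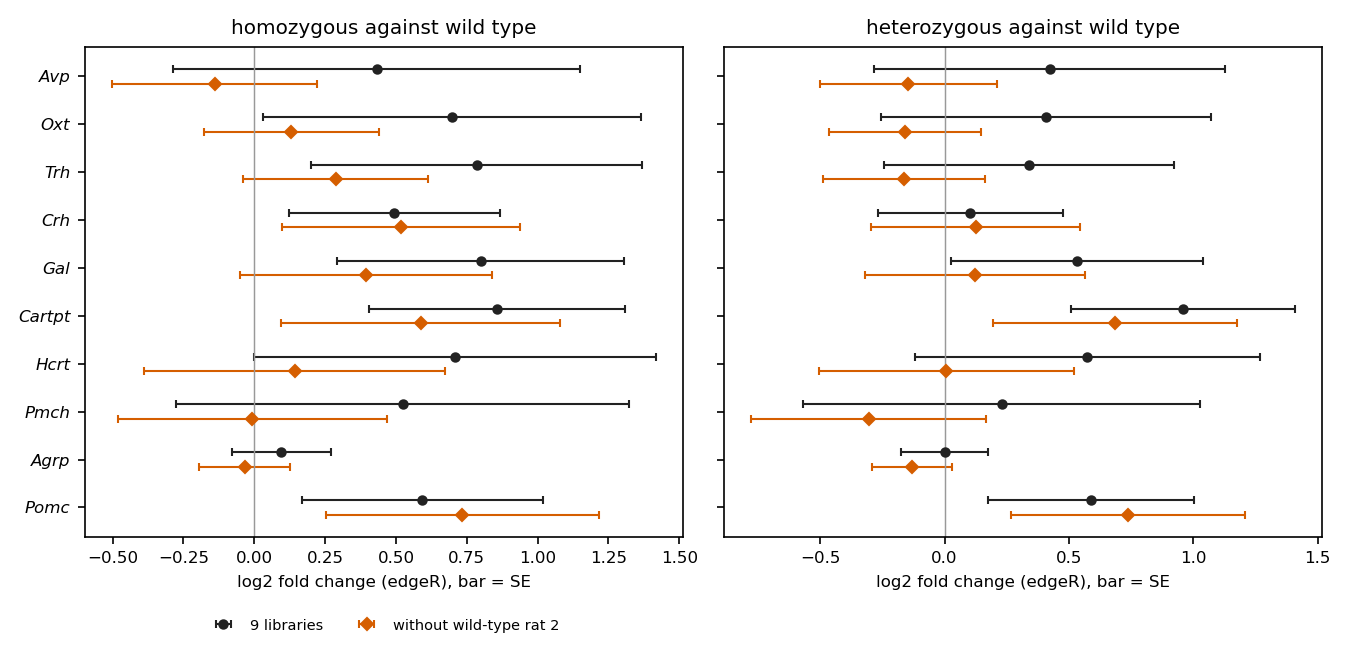
Log2 fold change by edgeR, with its SE, of the 10 members in homozygous (left) and heterozygous (right) against wild-type rats, from all 9 libraries (black circles) and without wild-type rat 2 (orange diamonds). With 9 libraries all values are at or above 0, and without that rat those of Avp, Pmch and the Agrp locus are below 0 on both sides and those of Oxt and Trh on the right. By TPM 9 of 10 values on the left and 5 of 10 on the right are below 0.

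In heterozygous against wild-type rats, which share their controls with the comparison above, the median over the members was 0.42, beside -0.04 over all loci and 0.07 over symbol loci. The largest value was that of Cartpt (0.96, SE 0.45, edgeR adjusted p = 0.981), followed by Pomc (0.59, SE 0.41), Hcrt (0.57, SE 0.69), Gal (0.53, SE 0.51), Avp (0.42, SE 0.71), Oxt (0.41, SE 0.66), Trh (0.34, SE 0.58), Pmch (0.23, SE 0.80) and Crh (0.10, SE 0.37). By edgeR 0 of 10 members were called, beside 0.00768% of loci, and 0 had an unadjusted p under 0.05, beside 1.37% higher and 2.35% lower. Ranges of CPM were apart in 0 of 10, beside 2.69% of loci higher and 3.8% lower. Without wild-type rat 2 the values of Avp (-0.15), Oxt (-0.16), Trh (-0.16), Pmch (-0.30) and the Agrp locus (-0.13) were below 0. Cartpt (0.69, SE 0.49) and Pomc (0.74, SE 0.47) were not. The median over the members was then -0.06, with 5 of 10 above 0, and it was 0.96 without wild-type rat 3.

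In homozygous against heterozygous rats no member passed the test. The log2 fold change was above 0 for 9 of 10 by edgeR, with a median of 0.20, and below 0 for all 10 by TPM, where the median symbol locus was at -0.34. Trh (0.45, SE 0.58), Crh (0.39, SE 0.37), Pmch (0.29, SE 0.80), Oxt (0.29, SE 0.65) and Gal (0.27, SE 0.49) were the largest, and Cartpt was at -0.10 (SE 0.44). By edgeR 0 of 10 were called, beside 0.00256% of loci, and 0 had an unadjusted p under 0.05, beside 0.512% higher and 1.2% lower. Ranges were apart in 0 of 10, beside 4.71% of loci higher and 4.12% lower. The means compared here do not include wild-type rat 2. The median was 0.0021 without heterozygous rat 3, 0.32 without heterozygous rat 2, 0.11 without heterozygous rat 1 and 0.13 without homozygous rat 3. The Agrp isoform, given above, was under that unadjusted level here and in the slope, unlike its locus. Per deleted allele the slope was above 0 for 10 of 10, from 0.05 (SE 0.08) for the Agrp locus to 0.42 (SE 0.25) for Cartpt, and 0 passed (edgeR adjusted p from 0.515 to 0.828), beside 0% of loci called and 5.76% higher and 5.15% lower at an unadjusted p under 0.05. Without wild-type rat 2 the slopes of Avp (-0.07) and of the Agrp locus (-0.01) were below 0, and the median slope of the members fell from 0.32 to 0.12. It was 0.50 without wild-type rat 3.

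Receptors and processing enzymes of the peptides gave no call either. Of 10 tested receptor genes 2 were higher in homozygous rats at an unadjusted p under 0.05 (4.88% of loci were) and 0 passed. These were Crhr1, the main receptor of corticotropin-releasing hormone (0.67, SE 0.27), and Mc4r, the receptor at which melanocortins and Agrp compete (0.80, SE 0.35), with Mchr1, the receptor of melanin-concentrating hormone, next (0.33, SE 0.24). Crhr1 measured 4.89, 3.38 and 6.74 CPM in wild types and 9.11, 6.20 and 8.66 CPM in homozygotes, ranges that overlap. Mc4r measured 0.767, 0.417 and 0.627 CPM in wild types and 0.619, 1.10 and 1.36 CPM in homozygotes, also overlapping. Of 13 processing and granule genes 0 had an unadjusted p under 0.05, with Scg5 (0.31, SE 0.19), Vgf (0.45, SE 0.31) and Chga (0.33, SE 0.24) of smallest p. Of 13 other neuropeptides 1 was higher at that level, Sst, which encodes somatostatin (0.80, SE 0.27; edgeR adjusted p = 0.544), and Nts (-0.39, SE 0.29) and Penk (0.33, SE 0.24) came next. The locus named Npy, the partner peptide of Agrp, is listed at 0 in all libraries. Whether the assembly missed its reads was not tested, and the 0 is not taken to mean that Npy RNA is absent. Of 8 modulators of arcuate signalling Sdc3 was higher at that level (0.50, SE 0.20), followed by Npy2r (-0.55, SE 0.31) and Atrn (0.14, SE 0.18). Ranges were apart for Sst, at 6.33 to 10.6 CPM in wild types and 12.5 to 16.4 CPM in homozygotes. They were also apart for Sdc3, at 49.4 to 91.7 and 96.1 to 115 CPM. That is 1 of 13 other neuropeptides, 1 of 8 modulators, 0 of 10 receptors and 0 of 13 processing genes, beside 7.29% of loci higher.

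Among lists of hypothalamic identity and of other regions, 0 genes passed in homozygous against wild-type rats by edgeR. The genes of smallest p were Arnt2, Pou3f2 and Isl1 of 10 hypothalamic factors (0.18 to 0.43) and Th, Ddc and Slc6a3 of 6 amine genes (0.26 to 1.07), with 0 at an unadjusted p under 0.05 in both lists. The pituitary, which makes much Pomc, was marked by Prl and Gh1: Prl was at 0 in wild-type rats, at 0.061 to 0.681 CPM in heterozygous rats and at 0 to 0.023 CPM in homozygous rats, and Gh1 at 0 to 0.156, 0.364 to 2.00 and 0 to 0.044 CPM. Other pituitary hormones, named after their values were seen, were not higher in heterozygous rats alone. Cga, the shared alpha subunit, was at 2.33, 0.026 and 4.01 CPM in wild types, 2.59, 1.07 and 2.57 CPM in heterozygotes and 0.310, 2.74 and 4.68 CPM in homozygotes, and Tshb, the thyrotropin beta subunit, ran from 0 to 0.953, 0.283 to 0.630 and 0 to 1.26 CPM. Heterozygous rat 1 was highest in Prl, Gh1 and, of its genotype, Pomc, whereas homozygous rat 1, the highest in Pomc, had Prl at 0 and Gh1 at 0.044 CPM. Summed over the 8 pituitary genes of the table, levels ran from 0.755 to 6.49, 3.54 to 6.90 and 1.46 to 7.20 CPM in the order wild type, heterozygous and homozygous, and the part of pituitary RNA in the Pomc values was not tested. Tph1, abundant in the pineal gland, ran from 0.154 to 92.8 CPM and Gabra6, of cerebellar granule cells, from 0.585 to 103 CPM, with both extremes of Gabra6 outside the heterozygous rats. The genes of smallest p elsewhere were Gh1, Pax7 and Lhb of 6 pituitary genes (-2.48 to 0.69), Tph1 and Lhx4 of 2 pineal genes (0.33 to 0.59), Barhl1, Pcp2 and Zic1 of 8 cerebellar genes (0.48 to 1.28), Clic6, Kcne2 and Kl of 7 choroid plexus genes (-0.51 to -0.46), Rarb, Ppp1r1b and Adora2a of 7 striatal genes (0.29 to 0.47), Neurod6, Prox1 and Slc17a7 of 6 cortical and hippocampal genes (-0.50 to 0.20) and Mbp, Rbfox3 and Gfap of 7 general brain genes (0.24 to 0.38), with 0 at an unadjusted p under 0.05. Ramp3, 1 of 7 thalamic genes, was higher at that level (0.57, SE 0.25; then Gbx2 at 1.59 and Lef1 at 0.32), and Slc4a1 (-1.53), Hbb (-0.91) and Alas2 (-0.81) were the 3 of 4 blood loci that were lower at that level (4.25% of loci were).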

How the data were processed

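The members and gene lists were chosen with earlier results of these data known. Deposited by the authors were expected counts from RSEM for loci and isoforms, TPM, and the percent of a gene assigned to each isoform, on a StringTie assembly merged over libraries and compared with a reference annotation, per the file headers and contents. Per the submitters' processing notes, the build was rn6 and the tools included HISAT2 and cutadapt beside RSEM and StringTie. Versions and the strand setting are not given in these sources. RSEM divides reads that fit several loci, so near-identical genes share counts.

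Expected counts were rounded. Of 114601 loci, 39057 passed filterByExpr (minimum count 10). All 9 libraries were fitted together with edgeR 4.0.16 (TMM, robust quasi-likelihood, legacy set to FALSE, R 4.3.3), giving log2 fold changes with SE and Benjamini-Hochberg p adjusted over all loci (threshold 0.05). CPM uses TMM-scaled library sizes. Profiles used log2(CPM + 0.5). Spike-in loci stayed out of library sizes and tests. Floors are 3 counts, intervals are exact 95% ones, and both cover counting error only. Single isoform values were compared with exact permutation tests. The fits were tested on simulated data. No pair of libraries of 1 genotype looked like a duplicate (chi-square per locus of 24.4 or more). The labels number separate rats.

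The genes named are the 10 members, the 3 genes of smallest p in each list for homozygous against wild type, the markers Prl, Gh1, Tph1 and Gabra6, and the 3 nearest profiles for the 3 members of largest SD. Outside this rule, Cga and Tshb were named after their values were seen, and Npy was named as well. The longer Cartpt isoform was singled out after its values were seen. Alternatives were RLE factors, no filter, DESeq2 1.42.0, limma-voom (limma 3.58.1), only the genotypes compared, a replicate block, no mitochondrial and 10 most abundant loci, leaving out each rat, summed same-strand loci and TPM. Chosen after seeing the data were the spike-in pattern as covariate, only libraries of the larger pattern, the Agrp isoform for its locus, and genotype orders and member medians with rats left out. Hba-a1 and Hba-a2 share a locus, counted once.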

Additional observations from a re-analysis of the deposited data

How the results depend on the processing

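Depth limits Hcrt, Pomc, Crh and Gal most, with 0 to 68 counts per library. Over the alternatives that give a test or a ratio, 166 of 182 member values kept their direction and side of the threshold in homozygous against wild-type rats, 12 changed sign and 4 passed, all with the spike-in covariate, which leaves wild-type rat 2 as the lone control and so tests no genotype. The counts were 167 of 192 with 25 changes of sign in heterozygous against wild-type rats, 145 of 182 with 37 in homozygous against heterozygous rats, and 160 of 162 with 2 for the slope. The cause was not tested for any of them.

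Loci called in homozygous against wild-type rats (0 by edgeR, 3566 at an unadjusted p under 0.05) were 6 with no filter, 33 with DESeq2, 1 with the replicate block and 2189 with the spike-in covariate, and 0 to 5 when a rat was left out (5 without homozygous rat 1, 1 without wild-type rat 1). In heterozygous against wild-type rats (3) they were 5 with no filter, 18 with DESeq2, 7 with only the genotypes compared, 1 with the spike-in covariate, 8 with only the 5 libraries of the larger spike-in pattern, and 1 to 28 when a rat was left out (28 without heterozygous rat 1, 7 without homozygous rat 1, 1 without wild-type rat 2 or heterozygous rat 2). In homozygous against heterozygous rats (1) they were 2 with RLE factors, no filter, limma-voom, only the genotypes compared or the replicate block, 6 with DESeq2, 5 with the spike-in covariate, and 1 to 18 when a rat was left out (18 without heterozygous rat 1). For the slope (0 by edgeR, 4261 at an unadjusted p under 0.05) they were 41 with DESeq2, 1 with the spike-in covariate and 0 to 3 when a rat was left out (3 without wild-type rat 2).

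Members whose log2 fold change changed sign when a rat was left out ranged as follows. In homozygous against wild-type rats Avp ran from -0.14 to 1.31, Pmch from -0.0081 to 1.18 and the Agrp locus from -0.034 to 0.21. In heterozygous against wild-type rats Avp ran from -0.15 to 1.32, Oxt from -0.16 to 1.14, Trh from -0.16 to 1.03, Crh from -0.17 to 0.42, Pmch from -0.30 to 0.89 and the Agrp locus from -0.13 to 0.12. In homozygous against heterozygous rats Avp ran from -0.22 to 0.28, Gal from -0.026 to 0.48, Cartpt from -0.47 to 0.40, Hcrt from -0.15 to 0.43, Pmch from -0.076 to 0.63 and Pomc from -0.33 to 0.40. The slope of Avp ran from -0.068 to 0.55 and that of the Agrp locus from -0.0091 to 0.10.

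By TPM the values that changed sign in homozygous against wild-type rats were -0.44 for Avp, -0.15 for Oxt, -0.044 for Trh, -0.29 for Crh, -0.057 for Gal, -0.10 for Hcrt, -0.30 for Pmch, -0.66 for the Agrp locus and -0.12 for Pomc. In heterozygous against wild-type rats they were -0.046 for Oxt, -0.026 for Trh, -0.18 for Crh, -0.065 for Pmch and -0.26 for the Agrp locus, where the median symbol locus was at -0.29. In homozygous against heterozygous rats they were -0.46 for Avp, -0.10 for Oxt, -0.018 for Trh, -0.11 for Crh, -0.18 for Gal, -0.31 for Hcrt, -0.24 for Pmch, -0.39 for the Agrp locus and -0.32 for Pomc. The spike-in covariate gave heterozygous against wild-type values of -0.15 for Avp, -0.16 for Oxt, -0.16 for Trh, -0.30 for Pmch and -0.13 for the Agrp locus, and only the 5 libraries of the larger pattern gave -0.14, -0.14, -0.15, -0.29 and -0.12 in that order. The Agrp isoform gave -0.051 there.

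In homozygous against heterozygous rats Avp (0.0091 by edgeR with TMM) was at -0.038 with no filter, -0.00041 with limma-voom, -0.0076 with only the genotypes compared, -0.031 without mitochondrial and most abundant loci and -0.060 with summed loci. Pomc (0.0034) was at -0.032, -0.011, -0.0063 and -0.038 in the first 4 of these and at -0.41 with the spike-in covariate. Cartpt (-0.10) was at 0.0076 with limma-voom and 0.94 with the spike-in covariate.

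With the rat number as a replicate block 1 locus was called in homozygous against wild-type rats and 2 in homozygous against heterozygous rats, and the value of Avp in the latter was -0.060. Correlations between same-numbered rats ran from -0.176 to 0.401 over 9 pairs. Rats of different numbers were not compared, so these values cannot show whether the numbers pair the rats. The main fit took them as unpaired, since the labels state no pairing.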
